A study of Mus musculus with 12 samples.

Results

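Transforming growth factor beta (TGF-beta) is a family of secreted signalling proteins with 3 ligand genes in mammals, Tgfb1, Tgfb2 and Tgfb3. Each ligand is secreted in a latent form, held inside its own propeptide, and most of it is tethered to the extracellular matrix by latent TGF-beta binding proteins (LTBPs) until integrins, proteases or thrombospondin release it. Free ligand binds the type II receptor TGFBR2, which phosphorylates the type I receptor TGFBR1, and SMAD2 and SMAD3 then carry the signal to the nucleus. In the heart this pathway is best known for driving fibroblasts to make matrix, and Ctgf (connective tissue growth factor, now called Ccn2) is among its best known targets.

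The 9 genes described here are the 3 ligands, the latent binders Ltbp1, Ltbp2, Ltbp3 and Ltbp4, the receptor gene Tgfbr2 and the target gene Ctgf. They were chosen by symbol from the 44450 loci listed for each library, with earlier results of these data known. Each symbol matched 1 locus that carries no other gene name. The libraries were made from total RNA of whole hearts of 11-week-old C57BL/6N mice fed normal chow. The 3 knockout libraries have the genotype Mrpp3 loxP/loxP, +/Ckmm, and the 3 control libraries the genotype Mrpp3 loxP/loxP, so both groups carry the loxP sites and the Ckmm transgene is in the knockouts alone. Effects of the transgene and of the deletion cannot be told apart. Ckmm names the muscle creatine kinase gene, whose promoter is used to express Cre recombinase in heart and skeletal muscle cells, so in this model fibroblasts, vessel cells and immune cells are not the cells aimed at. Mrpp3, now called Prorp, encodes the nuclease of mitochondrial RNase P. The labels number the libraries of a group as replicates and do not say whether each came from its own animal. The p-values therefore measure the spread between these libraries.

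Levels are in FPKM (fragments per kilobase of transcript, scaled to library size), a per-length unit that lets genes be set side by side. A log2 fold change is knockout over control on the scale of log2(FPKM + 0.5), which understates the change of low genes. A gene is called where limma, a linear model fitted over the 12181 loci that reached 1 FPKM in 3 or more libraries, gave a Benjamini-Hochberg adjusted p under 0.05. Of these loci 35.7% were called, 16.1% higher and 19.5% lower in the knockout, with a median log2 fold change of -0.02. The targeted gene Prorp, listed as 1110008L16Rik, had 0.441, 0.701 and 0.555 FPKM in knockout replicates 1 to 3, against 3.49, 2.64 and 3.23 FPKM in control replicates 1 to 3. The files state no read totals. Judged from the steps between the lowest values, the knockout libraries were 2.06 to 2.57 times as deep as control replicate 1, and the other controls 1.32 and 1.35 times. Knockout replicate 2 stood apart in markers of atrial muscle, which summed to 3706 FPKM. They summed to 119 and 7.63 FPKM in knockout replicates 1 and 3 and to 1.70 to 6.75 FPKM in controls. Ventricular markers summed to 7441 FPKM in knockout replicate 2, against 14902 and 16103 FPKM in knockout replicates 1 and 3. Whether the libraries held the parts of the heart in unlike amounts was not tested.

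All 9 genes passed the filter on low values, and Ltbp2 passed it through the knockout libraries alone. Tgfb2, Tgfb3, Ltbp2 and Ctgf were called higher in the knockout and Ltbp1 lower, so 5 of the 9 were called, beside 35.7% of all tested loci. Because the 9 were chosen with earlier results of these data known, counts over them are descriptions. Leaving Ltbp2 aside, 3 of the other 8 were called higher, beside 16.1% of all tested loci. The libraries of the groups did not overlap for 8 of the 9 genes, Ltbp4 being the exception, and the same held for 52.3% of all tested loci. Tgfb1, Ltbp3, Ltbp4 and Tgfbr2 were not called.

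**Figure D1:**
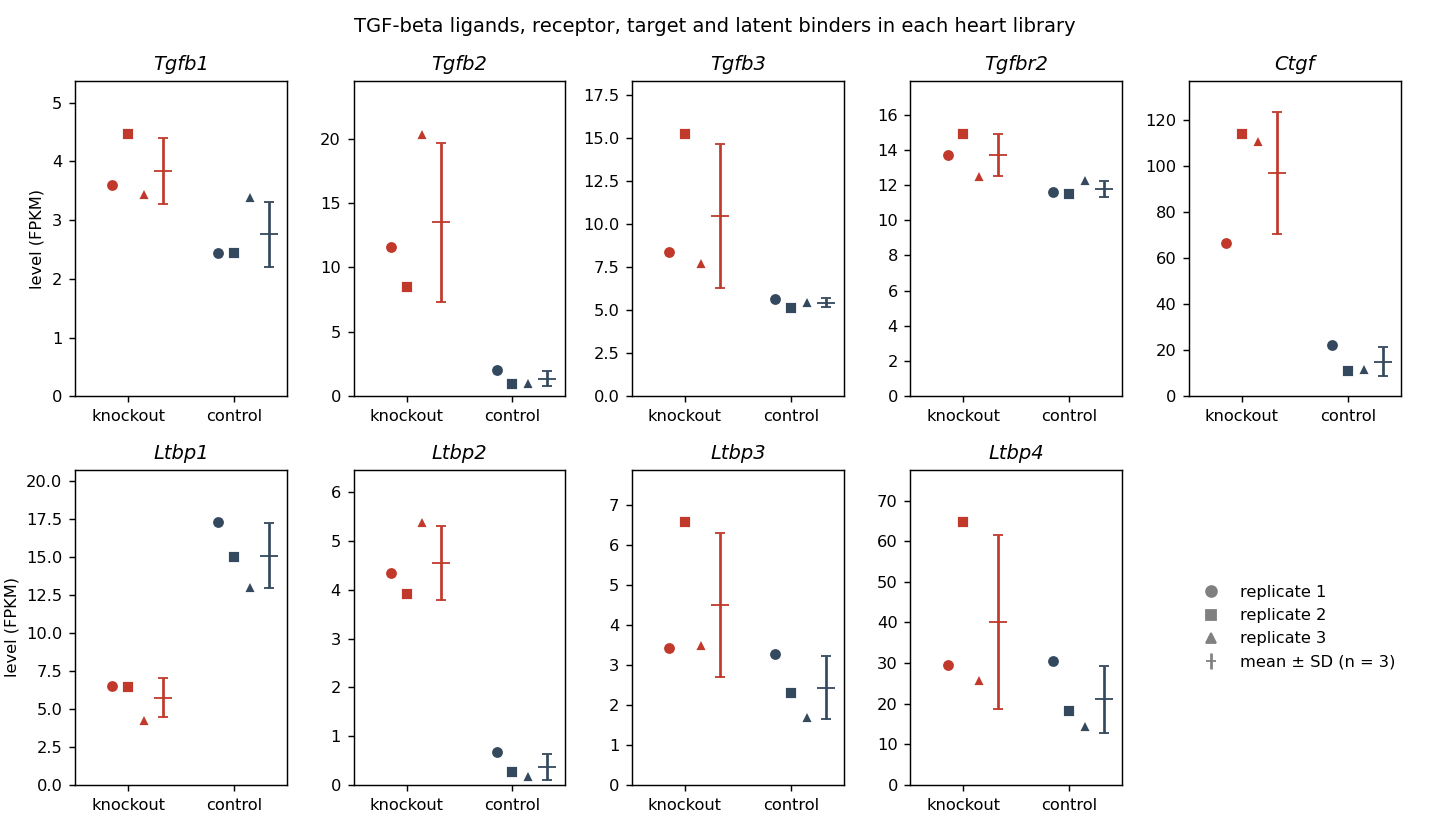
Level in FPKM of each of the 9 genes in the 3 knockout libraries (left, red) and the 3 control libraries (right, dark), with marker shapes for replicates and bars for mean ± SD, n = 3. The groups did not overlap for 8 of the 9 genes, Ltbp4 being the exception, beside 52.3% of all tested loci. Ltbp1 was lower in the knockouts and the other 7 of these 8 higher. Tgfb1, Tgfb3, Ltbp3, Ltbp4, Tgfbr2 and Ctgf were highest in knockout replicate 2.

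Tgfb2 was the ligand that differed most. This isoform is required in mice for normal formation of the heart valves and septa. It lies on chromosome 1 at 186622787 to 186709697 (RefSeq positions on GRCm38.p6). Its level was 11.6, 8.51 and 20.4 FPKM in knockout replicates 1 to 3, against 2.07, 0.979 and 1.06 FPKM in control replicates 1 to 3. Every knockout library stood well above every control, knockout replicate 3 highest and control replicate 1 highest of its group. Tgfb2 averaged 13.5 ± 6.17 FPKM in knockouts and 1.37 ± 0.605 FPKM in controls (SD, n = 3 each), a ratio of means of 9.86. The log2 fold change was 2.86 (SE 0.34, limma adjusted p = 0.0011), above 99.4% of all tested loci. With any one library left out it stayed between 2.53 and 3.14 and was called each time. In whole hearts, a change in the number of cells of a type and a change in RNA per cell cannot be told apart.

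The region before the listed start of Tgfb2 is shown because this is the ligand with the largest rise. The RefSeq promoter window holds 250 bases before and 50 after the start site, here chr1:186705940-186706239 on the minus strand of GRCm38.p6. This window lies inside the gene, whose span runs on to 186709697. The listed start is therefore an internal one, and the sequence before the outer end of the gene was not searched. It was searched on both strands for 6 motifs: the SMAD-binding letters CAGAC, the TEAD letters GGAATG, the AP-1 letters TGANTCA, the ATF4 letters TGATGNAA, the TATA box TATAAA and the E-box CACGTG. Capitals mark the matches.
Tgfb2: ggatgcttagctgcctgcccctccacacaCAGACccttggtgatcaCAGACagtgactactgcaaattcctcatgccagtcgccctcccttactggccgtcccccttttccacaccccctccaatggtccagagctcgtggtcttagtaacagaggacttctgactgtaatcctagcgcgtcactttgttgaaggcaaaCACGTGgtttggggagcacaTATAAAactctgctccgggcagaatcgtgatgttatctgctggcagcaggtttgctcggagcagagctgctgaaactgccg
The window held CAGAC at -221 and -204, CACGTG at -51 and TATAAA at -31, counted from the start site to the first base of each match. Of 32851 windows of this length in the table, 16.2% hold at least 2 CAGAC matches on either strand, 7.15% hold CACGTG and 13.6% hold TATAAA. The TEAD, AP-1 and ATF4 letters had no match in this window. A match of letters is a description and no evidence of binding.

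Tgfb3, the isoform needed in mice for closure of the palate, rose less. It lies on chromosome 12 at 86056743 to 86079041, 1.18 Mb from Ltbp2. Its level was 8.38, 15.3 and 7.71 FPKM in knockout replicates 1 to 3, against 5.65, 5.14 and 5.47 FPKM in control replicates 1 to 3. All knockout libraries were above all controls, and knockout replicate 2 was far above the other two. Its log2 fold change was 0.82 (SE 0.24, limma adjusted p = 0.033). It was 0.53 without knockout replicate 2 and was still called (limma adjusted p = 0.014). The call was lost without control replicate 1, 2 or 3 (limma adjusted p = 0.079, 0.097 and 0.087) and with no filter on low values (0.073).

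Tgfb1, the isoform abundant in platelets and immune cells and the one most studied in fibrosis, was the lowest ligand in the knockouts. It lies on chromosome 7 at 25687002 to 25705077, 1.6 Mb from Ltbp4. Its level was 3.59, 4.48 and 3.44 FPKM in knockout replicates 1 to 3, against 2.44, 2.44 and 3.39 FPKM in control replicates 1 to 3. The groups came close to touching, at 3.44 FPKM in knockout replicate 3 and 3.39 FPKM in control replicate 3. On the log2 scale the fold change was 0.42 with a 95% interval of 0.03 to 0.81 before any adjustment (limma adjusted p = 0.090). It was called only when libraries were scaled to one summed FPKM (log2 fold change 0.62, limma adjusted p = 0.031), a scaling that moves the median of all tested loci to 0.19.

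The make-up of ligand RNA differed between groups. Summed over the 3 genes, ligand RNA stood at 23.6, 28.2 and 31.6 FPKM in knockout replicates 1 to 3, against 10.2, 8.57 and 9.93 FPKM in control replicates 1 to 3. Tgfb2 made up 49.2%, 30.1% and 64.7% of this sum in the knockouts, against 20.4%, 11.4% and 10.7% in the controls. Tgfb3 made up 35.5%, 54.0% and 24.4% in the knockouts, against 55.6%, 60.1% and 55.1% in the controls. Tgfb1 made up 15.2%, 15.9% and 10.9% in the knockouts, against 24.0%, 28.5% and 34.2% in the controls. Tgfb3 was thus the leading ligand RNA in every control and in knockout replicate 2, and Tgfb2 in knockout replicates 1 and 3. These shares were computed from the levels above and were not tested.

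**Figure D2:**
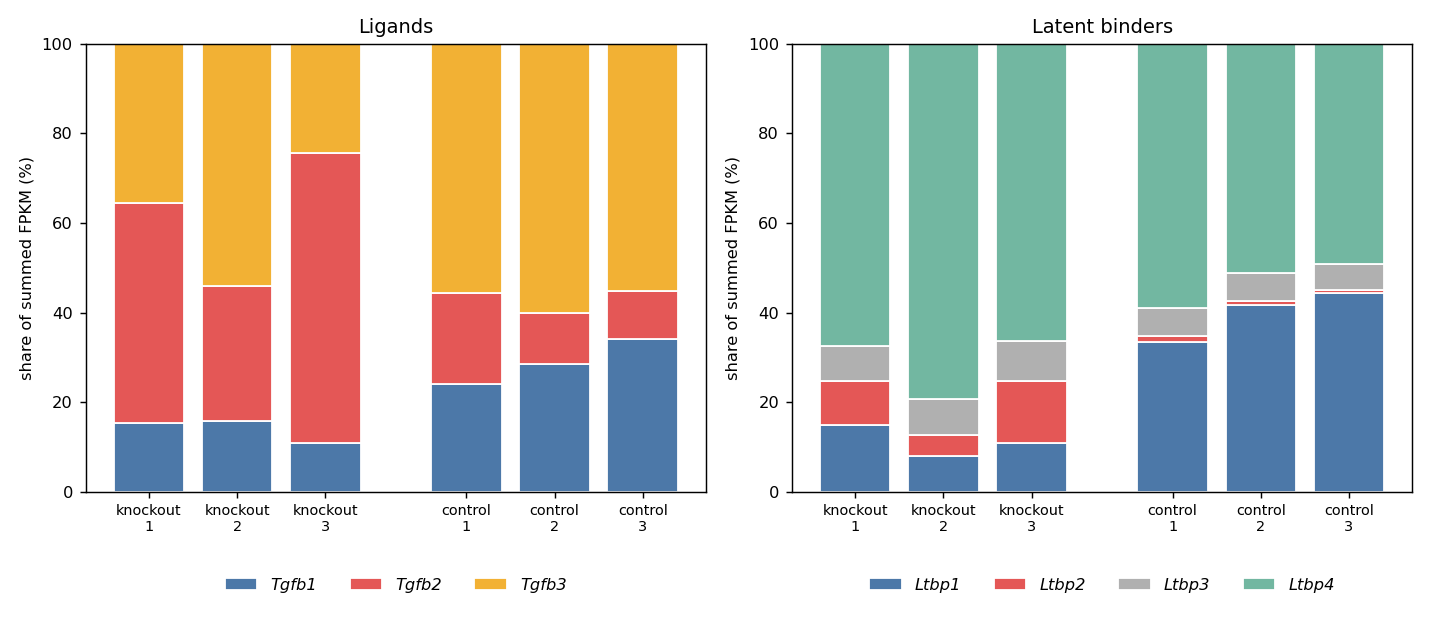
Share in percent of the summed FPKM of the 3 ligands (left panel) and of the 4 latent binders (right panel) in each knockout and control library. The Tgfb2 share was 30.1% to 64.7% in knockouts and 10.7% to 20.4% in controls, and the Ltbp1 share was 7.90% to 14.9% in knockouts and 33.5% to 44.4% in controls.

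Among the latent binders, Ltbp1 and Ltbp2 differed in opposite directions. LTBP1 binds the propeptide of the ligands through a disulfide bond and stores the latent complex in the matrix. Ltbp1 lies on chromosome 17 at 75005480 to 75392512. It had 6.54, 6.44 and 4.26 FPKM in knockout replicates 1 to 3, against 17.3, 15.0 and 13.0 FPKM in control replicates 1 to 3. Every knockout library was far below the lowest control. Its log2 fold change was -1.33 (SE 0.19, limma adjusted p = 0.0023), with a ratio of means of 0.381. It stayed between -1.43 and -1.15 with any one library left out and was called each time.

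LTBP2 is a fibrillin-binding matrix protein that, unlike the other LTBPs, does not bind latent TGF-beta. Ltbp2 lies on chromosome 12 at 84783212 to 84876558. It had 4.34, 3.91 and 5.38 FPKM in knockout replicates 1 to 3, against 0.680, 0.257 and 0.184 FPKM in control replicates 1 to 3. The knockout libraries lay close together, and no control reached 1 FPKM, so the fold depends on how low values are treated. The log2 fold change was 2.56 (SE 0.24, limma adjusted p = 0.00054). Over the other pseudocounts, filters, scalings and fits it ranged from 2.02 to 3.42, with a limma adjusted p of at most 0.0033. Because the gene entered the test through its knockout libraries alone, a difference between groups was built into its entry.

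The windows before the starts of these 2 genes are shown side by side because the genes moved in opposite directions. The Ltbp2 window is chr12:84876442-84876741 on the minus strand and the Ltbp1 window, the first of 2 listed starts, is chr17:75005279-75005578 on the plus strand, from the same RefSeq table and build. Capitals mark CAGAC or its reverse complement GTCTG.
Ltbp2: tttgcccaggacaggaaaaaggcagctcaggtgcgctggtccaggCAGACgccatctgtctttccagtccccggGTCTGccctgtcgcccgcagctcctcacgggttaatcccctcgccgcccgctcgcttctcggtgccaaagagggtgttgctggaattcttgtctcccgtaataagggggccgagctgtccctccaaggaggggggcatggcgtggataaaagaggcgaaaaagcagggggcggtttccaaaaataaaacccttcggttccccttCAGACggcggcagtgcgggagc
Ltbp1: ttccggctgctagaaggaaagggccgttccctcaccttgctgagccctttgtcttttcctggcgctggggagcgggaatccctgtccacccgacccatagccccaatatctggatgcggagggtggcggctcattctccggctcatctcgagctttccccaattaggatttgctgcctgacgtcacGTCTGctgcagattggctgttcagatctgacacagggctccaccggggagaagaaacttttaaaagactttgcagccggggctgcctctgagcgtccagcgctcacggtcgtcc
Ltbp2 held 3 such matches, at -205, -176 and 29, and this Ltbp1 window held 1, at -64. The window at the second listed Ltbp1 start held 2, at -148 and -97. Of the genes not called, Ltbp3 held 2, at -58 and -1, and Tgfbr2 held 1, at -160, while the Tgfb1 and Ltbp4 windows held none. Among all listed windows, 3.9% hold at least 3 and 49.6% hold at least 1. The table had windows for 7 of the 9 genes, without Tgfb3 and Ctgf, and none of their 10 windows matched the TEAD or ATF4 letters.

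LTBP3 also binds latent TGF-beta and is known for its part in skeletal and tooth growth. Ltbp3, on chromosome 19 at 5740900 to 5758536, had 3.41, 6.56 and 3.49 FPKM in knockout replicates 1 to 3, against 3.28, 2.30 and 1.71 FPKM in control replicates 1 to 3. The groups did not overlap, yet knockout replicates 1 and 3 were barely above control replicate 1. Its log2 fold change was 0.75 with a 95% interval of 0.08 to 1.41 before adjustment (limma adjusted p = 0.078). It was not called under any alternative setting.

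LTBP4 takes part in assembling elastic fibres. Ltbp4, on chromosome 7 at 27305140 to 27339720, had 29.6, 64.7 and 25.9 FPKM in knockout replicates 1 to 3, against 30.4, 18.3 and 14.4 FPKM in control replicates 1 to 3. Control replicate 1 was above 2 of the knockout libraries, so the groups overlapped. On the log2 scale the fold change was 0.86 with a 95% interval of -0.05 to 1.77 (limma adjusted p = 0.12). Without knockout replicate 2 it was 0.46 (limma adjusted p = 0.26).

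Ltbp4 had the largest share of the latent binder RNA in each of the 6 libraries. It made up 67.5%, 79.3% and 66.3% of the summed LTBP FPKM in knockout replicates 1 to 3, against 58.9%, 51.1% and 49.2% in control replicates 1 to 3. Ltbp1 made up 14.9%, 7.90% and 10.9% in the knockouts, against 33.5%, 41.8% and 44.4% in the controls. Ltbp2 made up 9.88%, 4.79% and 13.8% in the knockouts, against 1.32%, 0.718% and 0.628% in the controls. Summed LTBP RNA was 43.9, 81.6 and 39.0 FPKM in the knockouts, against 51.6, 35.8 and 29.3 FPKM in the controls, and these sums overlapped between groups. No test was run on these shares or sums.

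Tgfbr2 showed the smallest difference of the 9. The gene, on chromosome 9 at 116087695 to 116175363, encodes the receptor that binds the ligand first. It had 13.7, 14.9 and 12.5 FPKM in knockout replicates 1 to 3, against 11.6, 11.5 and 12.3 FPKM in control replicates 1 to 3. The groups were adjacent without overlap. The log2 fold change was 0.21 with a 95% interval of -0.06 to 0.47 (limma adjusted p = 0.19). It was called only with libraries scaled to one summed FPKM (log2 fold change 0.43, limma adjusted p = 0.042), where the median locus moved to 0.19.

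Ctgf was the most abundant of the 9 genes in the knockouts. It encodes a secreted matrix-associated protein of the CCN family, and its transcription is known to respond to SMAD proteins and to YAP with TEAD factors. Ctgf lies on chromosome 10 at 24595442 to 24598683. It had 66.7, 114 and 111 FPKM in knockout replicates 1 to 3, against 22.2, 11.1 and 11.9 FPKM in control replicates 1 to 3. Every knockout library stood far above every control, knockout replicate 1 lowest and control replicate 1 highest of its group. Ctgf averaged 97.3 ± 26.5 FPKM in knockouts and 15.1 ± 6.19 FPKM in controls (SD, n = 3 each), a ratio of means of 6.46. Its log2 fold change was 2.68 (SE 0.31, limma adjusted p = 0.0010), between 2.50 and 2.99 with any one library left out.

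**Figure D3:**
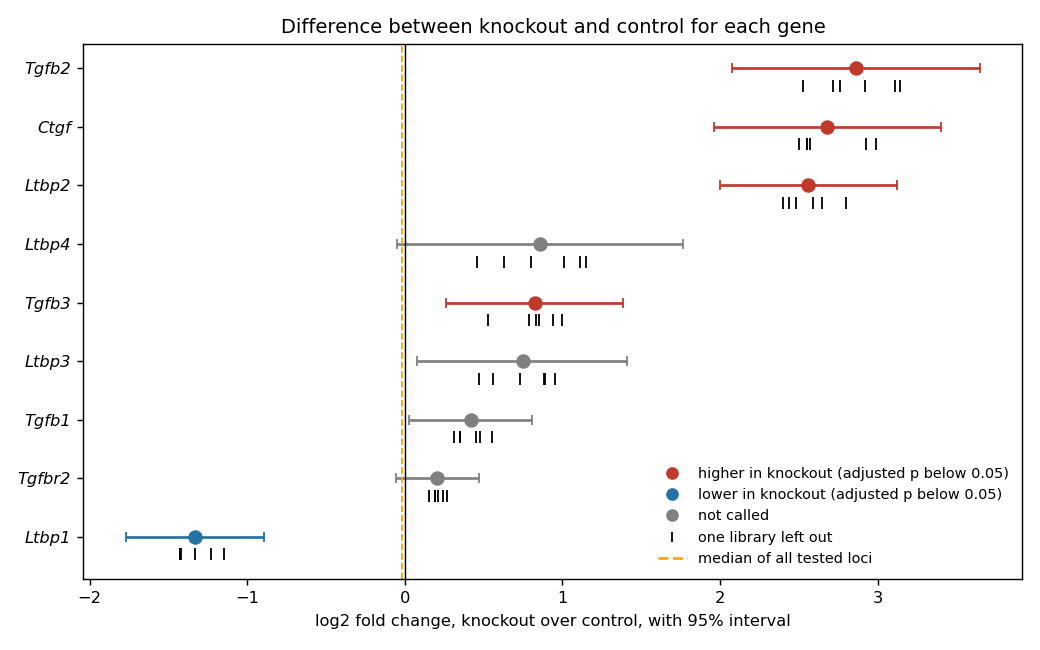
Log2 fold change of each gene, knockout over control, with its 95% interval from limma, and ticks below it for the fits with one library left out. Tgfb2, Ctgf and Ltbp2 lie at 2.86, 2.68 and 2.56, Ltbp1 lies at -1.33, and the intervals of Ltbp4 and Tgfbr2 cross 0. Intervals are before adjustment, and those of Tgfb1 and Ltbp3 exclude 0 although neither gene was called. Ltbp2 passed the filter on low values through the knockout libraries alone.

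Ordered by mean level, the knockouts ran Ctgf, Ltbp4, Tgfbr2, Tgfb2, Tgfb3, Ltbp1, Ltbp2, Ltbp3 and Tgfb1, with means of 97.3 FPKM at the top and 3.84 FPKM at the bottom. Within that order Ctgf stood clear of Ltbp4, Ltbp4 of Tgfbr2, and Tgfb3 of Ltbp1, while all other neighbours overlapped in range. The controls ran Ltbp4, Ltbp1, Ctgf, Tgfbr2, Tgfb3, Tgfb1, Ltbp3, Tgfb2 and Ltbp2, with means of 21.0 FPKM at the top and 0.374 FPKM at the bottom. There Ltbp4, Ltbp1, Ctgf and Tgfbr2 overlapped from one to the next, as did Tgfb1, Ltbp3 and Tgfb2, while Tgfbr2 and Tgfb3, Tgfb3 and Tgfb1, and Tgfb2 and Ltbp2 did not.

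The genes did not all vary alike among the knockout libraries. Of the 9 genes 6, namely Tgfb1, Tgfb3, Ltbp3, Ltbp4, Tgfbr2 and Ctgf, were highest in knockout replicate 2, which was the highest knockout library for 31.1% of all tested loci. Tgfb2 and Ltbp2 were highest in knockout replicate 3 and Ltbp1 in knockout replicate 1. Replicate 2 was also the library with raised markers of atrial muscle, red blood cells and mesothelium. Without it the calls on Tgfb2, Tgfb3, Ltbp1, Ltbp2 and Ctgf were all kept, at log2 fold changes of 3.14, 0.53, -1.42, 2.65 and 2.54.

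The loci nearest to a gene in pattern were taken by the distance between log2 values centred over the 6 libraries. These are descriptions over 6 libraries whose main contrast is genotype. The nearest to Tgfb2 were Akip1 (distance 0.48), Gsta2 (0.66) and Rnd1 (0.67). Akip1 had 22.9, 16.5 and 45.3 FPKM in knockout replicates 1 to 3, against 4.36, 3.22 and 3.62 FPKM in controls, so it shared with Tgfb2 the order of the knockout libraries. The nearest to Ctgf were Stard5 (0.55), 2010204K13Rik (0.67) and Comp (0.68). The nearest to Tgfb3 were Csrp2 (0.15), Hist2h4 (0.17) and F2r (0.21), all highest in knockout replicate 2. The nearest to Tgfb1 were Gm10179 (0.16) and the ribosomal protein genes Rps19 (0.17) and Rps18 (0.175).

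The rest of the pathway was read from 6 lists with 89 genes, 73 of them tested. The lists were drawn up with earlier results of these data known. Of these 32 were called higher and 4 lower, beside the 16.1% and 19.5% of all tested loci, and 6 of the 73 passed the filter through their higher group alone. Their median log2 fold change was 0.48 against -0.02 over all tested loci, and 0.34 without knockout replicate 2. There are 5 genes that stand in more than 1 list. The count of genes called lower rests on single libraries and settings, being 1 without knockout replicate 1 or any 1 control and 2 without knockout replicate 3.

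Of 6 receptors and co-receptors, none was called higher and 2 were called lower, beside 16.1% and 19.5% of all tested loci. Their median log2 fold change was -0.06, with members on both sides of 0. Eng (endoglin, a co-receptor of endothelial cells), named after its values were seen, had the highest value of the list, 0.68, and was not called (limma adjusted p = 0.15). Tgfbr3 encodes betaglycan, a co-receptor that presents TGF-beta2, and its locus also carries the name RP23-24K16.3. It had 7.89, 12.6 and 7.56 FPKM in knockout replicates 1 to 3, against 15.9, 13.5 and 14.2 FPKM in controls (log2 fold change -0.64, limma adjusted p = 0.041). Acvrl1, a type I receptor of endothelial cells, had 7.81, 7.53 and 8.17 FPKM in knockouts, against 9.61, 9.70 and 11.8 FPKM in controls (log2 fold change -0.38, limma adjusted p = 0.047). Over 15 alternative settings Tgfbr3 was called in 5 and Acvrl1 in 4. Tgfbr1, the type I receptor, was chosen after its values were seen. It had 5.20, 5.95 and 6.01 FPKM in knockouts, against 5.34, 4.88 and 5.79 FPKM in controls, with a 95% interval of -0.19 to 0.38 for the log2 fold change.

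Of 13 tested SMADs and SMAD regulators, 4 were called higher and 1 lower, beside 16.1% and 19.5% of all tested loci. Their median log2 fold change was 0.02, close to the -0.02 of all tested loci. Tgif1, a corepressor of SMAD transcription, had 3.93, 9.03 and 7.20 FPKM in knockouts, against 1.78, 2.18 and 2.05 FPKM in controls (log2 fold change 1.46, limma adjusted p = 0.0060). Pmepa1, which is induced by TGF-beta and limits its signal, had 11.1, 9.61 and 12.9 FPKM in knockouts, against 6.22, 5.17 and 5.65 FPKM in controls (log2 fold change 0.92, limma adjusted p = 0.0032). Both were called in all 15 alternative settings. Smurf1, a ubiquitin ligase for SMADs and receptors, had 11.4, 9.86 and 11.4 FPKM in knockouts, against 7.35, 7.49 and 8.07 FPKM in controls (log2 fold change 0.48, limma adjusted p = 0.016). It lost its call without control replicate 1 or 2 (0.061 and 0.067). Smad3 had 3.54, 5.25 and 3.40 FPKM in knockouts, against 6.23, 5.82 and 6.26 FPKM in controls (log2 fold change -0.56, limma adjusted p = 0.038), a call kept in 6 of 15 alternatives. Smad7, the inhibitory SMAD, was named after its values were seen and was not called, with 4.58, 13.1 and 5.54 FPKM in knockouts, against 4.93, 4.13 and 3.73 FPKM in controls.

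Genes that store or activate the latent complex gave 8 higher and 1 lower of 18 tested, beside 16.1% and 19.5% of all tested loci. Their median log2 fold change was 0.43. The gene that fell, Itgb6, encodes the partner of the integrin alpha-v chain in a receptor known to activate latent TGF-beta1 and TGF-beta3. It had 2.03, 0.745 and 1.35 FPKM in knockout replicates 1 to 3, against 14.05, 15.2 and 18.0 FPKM in controls (log2 fold change -3.17, SE 0.25, limma adjusted p = 0.00036). This was lower than 99.8% of all tested loci. Fmod and Bgn encode small proteoglycans that bind TGF-beta. Bgn had 95.9, 114 and 90.7 FPKM in knockouts, against 27.4, 28.0 and 26.4 FPKM in controls (log2 fold change 1.85, limma adjusted p = 0.00024). Fmod, which entered the test through its knockout libraries alone, had 2.03, 3.70 and 1.90 FPKM in knockouts, against 0.0909, 0.168 and 0.0900 FPKM in controls (log2 fold change 2.26, limma adjusted p = 0.00097). Fn1 (fibronectin) had 17.4, 29.1 and 10.5 FPKM in knockouts, against 5.77, 5.57 and 4.77 FPKM in controls (log2 fold change 1.62, limma adjusted p = 0.0081). Fbn1, the fibrillin to which LTBPs attach, was chosen after its values were seen. It had 47.0, 36.2 and 33.4 FPKM in knockouts, against 14.5, 15.7 and 17.5 FPKM in controls (log2 fold change 1.25, limma adjusted p = 0.0015).

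The list of TGF-beta response genes, drawn up with earlier results of these data known, held the most calls. Of 24 tested, 16 were called higher and none lower, beside 16.1% and 19.5% of all tested loci. The median log2 fold change was 1.22. Without knockout replicate 2, 14 were called higher and the median was 1.15. Of the 24, 2 passed the filter through their knockout libraries alone, and both were called higher. Postn (periostin, made by activated fibroblasts) had 102, 56.2 and 44.6 FPKM in knockouts, against 9.25, 8.76 and 10.6 FPKM in controls (log2 fold change 2.68, limma adjusted p = 0.00081). Timp1, a metalloprotease inhibitor, had 11.6, 8.57 and 5.51 FPKM in knockouts, against 1.12, 1.61 and 1.02 FPKM in controls (log2 fold change 2.33, limma adjusted p = 0.0010). Comp, a matrix protein of cartilage and fibrotic tissue, entered through its knockout libraries alone, with 3.64, 7.39 and 9.95 FPKM in knockouts, against 0.673, 0.389 and 0.50 FPKM in controls (log2 fold change 2.79, limma adjusted p = 0.0011). The list holds genes of contractile myofibroblasts as well, and Acta2 and Tagln, named after their values were seen, did not differ detectably. Both are also among the smooth muscle markers below, so in whole heart their level cannot be assigned to myofibroblasts. Acta2 had 55.3, 62.4 and 73.2 FPKM in knockouts, against 77.7, 70.0 and 48.6 FPKM in controls, with a 95% interval of -0.50 to 0.45 for the log2 fold change. Tagln had 20.2, 15.1 and 10.9 FPKM in knockouts, against 16.2, 15.7 and 13.3 FPKM in controls, with an interval of -0.51 to 0.50.

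Among the CCN family of Ctgf and genes of the YAP and TEAD factors, 6 of 13 tested were called higher and none lower. Over all tested loci these shares were 16.1% and 19.5%. The median log2 fold change of the list was 0.13. Wisp2, a CCN member with no C-terminal domain, had 38.6, 35.0 and 48.5 FPKM in knockouts, against 2.69, 3.43 and 1.90 FPKM in controls (log2 fold change 3.71, SE 0.21, limma adjusted p = 9.1e-05). Wisp1, another CCN member, entered through its knockout libraries alone, with 4.31, 19.8 and 12.9 FPKM in knockouts, against 0.200, 0.411 and 0.372 FPKM in controls (log2 fold change 3.73, limma adjusted p = 0.0016). Cyr61, the CCN member most like Ctgf, had 33.3, 49.3 and 29.9 FPKM in knockouts, against 16.5, 16.1 and 15.5 FPKM in controls (log2 fold change 1.17, limma adjusted p = 0.0037). Ankrd1, a stretch-responsive cardiac protein gene, had 1961, 1367 and 2022 FPKM in knockouts, against 156, 305 and 418 FPKM in controls (log2 fold change 2.69, limma adjusted p = 0.0021). The genes of the factors themselves, named after their values were seen, were mostly not called. Of Yap1, Wwtr1 and Tead1 to Tead4, Wwtr1 alone was called, 0.74 higher on the log2 scale (limma adjusted p = 0.0057).

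Of 10 other ligand genes of the superfamily, 4 were tested and 2 of these were called higher, both with no control library at 1 FPKM. Over all tested loci 16.1% were called higher. Inhba, the activin A subunit, had 3.92, 2.90 and 4.23 FPKM in knockouts, against 0.0999, 0.198 and 0.149 FPKM in controls (log2 fold change 2.68, limma adjusted p = 0.00024). Gdf15, a stress-induced hormone, had 56.2, 18.7 and 111 FPKM in knockouts, against 0.221, 0.334 and 0.328 FPKM in controls (log2 fold change 5.97, limma adjusted p = 0.00052). The other 2, Bmp4 and Bmp6, also named after their values were seen, were not called.

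**Figure D4:**
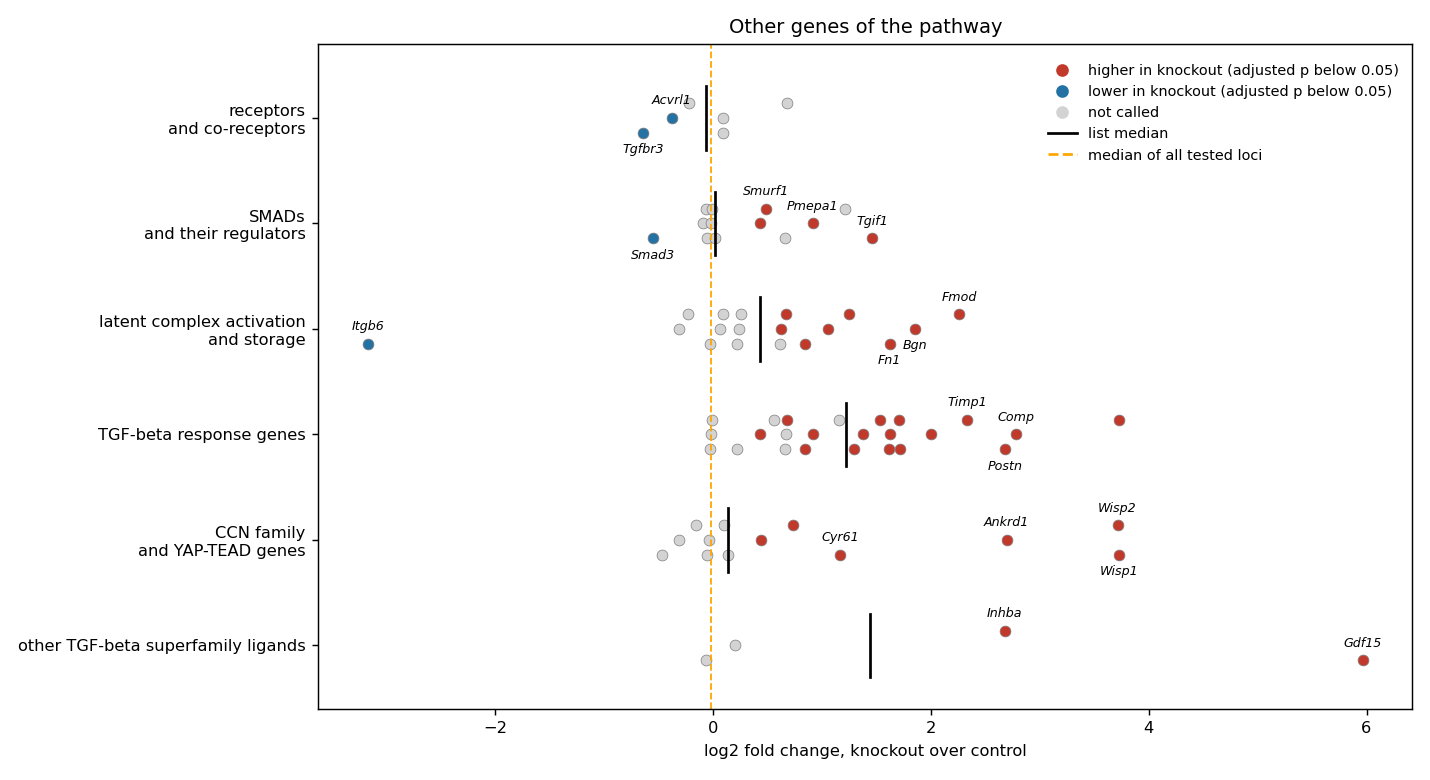
Log2 fold change, knockout over control, of each tested gene in the 6 pathway lists, with black bars for list medians and the dashed line for the median of all tested loci (-0.02). The TGF-beta response genes have the most points called higher (16 of 24, beside 16.1% of all tested loci). Of the 6 receptors none was called higher and 2 were called lower, beside 16.1% and 19.5% of all tested loci. Itgb6 stands apart at -3.17. The lists were drawn up with earlier results of these data known.

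Markers of cell types were summed in each library and set beside these results. Some markers also stand in the pathway lists, so the 2 sets are not independent. These are Col1a1 and Dcn of fibroblasts, Acta2, Tagln and Cnn1 of smooth muscle, and Bmp10 of atrial muscle. The 7 ventricular cardiomyocyte markers summed to 7441 to 16103 FPKM in knockouts, against 32277 to 37313 FPKM in controls, and 6 of the 7 were called lower. For this and the counts of calls below, the shares over all tested loci were 16.1% higher and 19.5% lower. The 6 fibroblast markers summed to 232 to 292 FPKM in knockouts, against 258 to 316 FPKM in controls, with 2 called higher (Tcf21 and Col1a1) and none lower. Dcn alone averaged 190 FPKM of this sum in knockouts and 237 FPKM in controls, and was not called (log2 fold change -0.31, limma adjusted p = 0.14). The median log2 fold change of the 6 fibroblast markers was 0.615, with Tcf21, Lum, Ddr2 and Col1a1 above 0 and Dcn and Pdgfra below. The 6 endothelial markers summed to 161 to 201 FPKM in knockouts, against 185 to 200 FPKM in controls, and none was called, with a median log2 fold change of -0.06. The 6 smooth muscle and pericyte markers summed to 186 to 235 FPKM in knockouts, against 262 to 293 FPKM in controls. Of this sum Rgs5 alone averaged 108 FPKM in knockouts and 168 FPKM in controls. Rgs5 was called lower and Pdgfrb higher, and the median log2 fold change of the 6 was -0.01. The 6 macrophage markers summed to 85.6 to 101 FPKM in knockouts, against 55.3 to 57.4 FPKM in controls, with 4 called higher and a median log2 fold change of 0.64. The 4 markers of platelets, a known source of Tgfb1, summed to 14.2 to 42.0 FPKM in knockouts, against 18.2 to 21.8 FPKM in controls, highest in knockout replicate 2. The 4 red blood cell markers summed to 616 to 21668 FPKM in knockouts, against 1554 to 2868 FPKM in controls, and the 3 mesothelial markers to 1.83 to 16.2 FPKM in knockouts, against 1.88 to 2.78 FPKM in controls, both again highest in knockout replicate 2. The 4 T cell markers summed to at most 1.29 FPKM in knockouts and 0.686 FPKM in controls. No marker was at 0 in every library. The part of fibroblast, macrophage or cardiomyocyte content in the results on Tgfb2, Ltbp1, Ltbp2 and Ctgf was not tested.

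**Figure D5:**
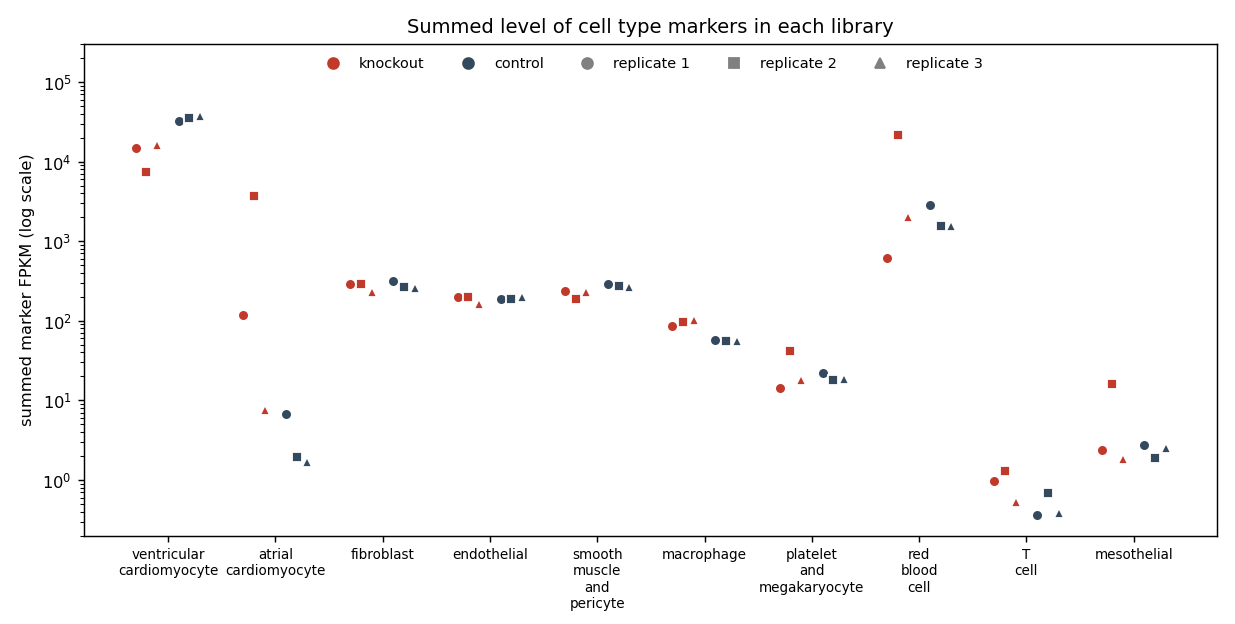
Summed FPKM (log axis) of each list of cell type markers in the 3 knockout libraries (left of each pair, red) and the 3 control libraries (right, dark), with marker shapes for replicates. Ventricular and smooth muscle sums were lower and macrophage sums higher in all knockouts than in any control, and endothelial sums overlapped. Fibroblast sums (mostly Dcn) overlapped while 2 of the 6 fibroblast markers were called higher. Of all tested loci 16.1% were called higher, 19.5% were called lower and 52.3% did not overlap between groups. Knockout replicate 2 (squares) stood apart in atrial, red blood cell and mesothelial markers.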

How the data were processed

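The 6 libraries analysed are total RNA of whole heart, prepared by the TruSeq protocol with random hexamers after Ribo-Zero depletion, per the labels' protocols. The 6 mitochondrial RNA end libraries were not analysed here. The deposited values are FPKM per locus, per the file names. The submitters' processing notes name bedtools, Cuffdiff, Cufflinks 2.2.1, HISAT 0.1.6, HISAT2 2.0.1, Picard 1.23, SAMtools 1.3 and StringTie 1.1.0, and the builds GRCm38 and mm10. What each tool did, the annotation, strand use and any scaling between libraries: not given in the sources used here. FPKM hold no counts, so no counting interval is given.

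Groups and replicate numbers came from the source names. Values were analysed as log2(FPKM + 0.5) with limma 3.58.1 in R 4.3.3 (empirical Bayes with a variance trend, two-sided, Benjamini-Hochberg over 12181 loci) and tested on simulated data. The 9 members and all lists were chosen with earlier results of these data known. Named genes are the members, up to 4 called genes per pathway list by size of change (the 2 most abundant where none was called), the 3 nearest loci of Ctgf and each ligand, and Prorp. A gene that this rule names is not reported here. Others are marked as chosen after their values were seen. All 9 members were found in the RefSeq gene table (GRCm38.p6), Ctgf as Ccn2 and the rest by symbol. Promoter windows are RefSeq's. Alternatives were other pseudocounts (0.1 and 1), filters and scalings, no variance trend, a replicate block, and each library left out with the tested loci kept.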

Additional observations from a re-analysis of the deposited data

How the results depend on the processing

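All 9 members kept their direction in each of the 15 alternatives, and 129 of 135 member values kept their side of the threshold. The exceptions were Tgfb3 (4 alternatives), Tgfb1 and Tgfbr2 (1 each), given above. Scaling to one summed FPKM moved the median locus to 0.19 and gave 3270 loci higher and 1394 lower (70.1% of calls higher), against 1966 and 2377 (45.3% higher) without scaling. With 1 library left out the loci called ranged from 1212 to 2153 higher and from 1409 to 2389 lower, both lowest without control replicate 2. The 4 pathway genes called lower became 1 with no filter, with scaling to one summed FPKM, with median-of-ratios scaling and with the replicate block, and 1 to 3 with 1 library left out. Itgb6 was called lower in all 15. Same-numbered libraries did not deviate together (r = -0.08, -0.06 and -0.01), and r of the other pairs lay between -0.08 and 0.12. With 3 libraries per group this does not settle whether the numbers pair them. The replicate block gave 1536 loci higher and 1807 lower, and 4 members higher and 1 lower. Of 300 values of named pathway genes, 32 lost their call and none changed direction. The files give no depth, which limits statements on genes under 1 FPKM, the Ltbp2 controls among them.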

Other observations

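The following genes were chosen after their values were seen. Bmp10, a superfamily ligand known from atrial muscle, did not pass the filter on low values. It was listed at 0.785, 386 and 4.19 FPKM in knockout replicates 1 to 3, against 0, 0 and 0.0577 FPKM in control replicates 1 to 3. The level in knockout replicate 2 exceeded that of every member in any library. Myl7 and Myl4, the atrial light chain genes, had 911 and 2290.5 FPKM in the same library. Smad6, an inhibitory SMAD, was also highest there, with 3.20, 18.0 and 5.96 FPKM in knockouts, against 3.09, 2.70 and 2.58 FPKM in controls (limma adjusted p = 0.10). Il11, a response gene of cardiac fibroblasts, was at or under 0.0422 FPKM in every library, and Cdkn2b, Snai1, Snai2 and Mmp9 did not pass the filter.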
